A study of Mus musculus with 16 samples.

Results

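The 5 genes described here, Medag, Mme, Aspn, Olfml3 and Angpt1, were chosen because they were the lowest in amino acid-deprived cells against control cells at 16 h, at ranks 1 to 5 of the 19938 genes named on the array. The choice rests on 1 control and 1 deprived array, so the values at 16 h are a description without a test. Each gene is represented by 1 row of the deposited table, with the Entrez identifiers 70717 (Medag), 17380 (Mme), 66695 (Aspn), 99543 (Olfml3) and 11600 (Angpt1).

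All samples came from the N25/2 line, immortalized cells of the embryonic mouse hypothalamus that were grown in Dulbecco's modified Eagle medium with fetal bovine serum. The cells were then kept in medium that contained amino acids (control) or lacked them (deprived). RNA was hybridized to Affymetrix whole-transcript arrays, 16 in all, with 1 control and 1 deprived array at 1, 2, 3 and 16 h and 4 of each at 5 h. Nothing in the labels tells separate cultures from repeats of 1 culture within these groups of 4, so a p-value reflects only the spread among the arrays, and that spread can be technical.

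Of the 5 products, 4 act at the cell surface or outside the cell. Asporin, encoded by Aspn, is a small leucine-rich proteoglycan of the extracellular matrix that binds collagen and transforming growth factor beta (TGF-beta). Olfml3 encodes a secreted glycoprotein with an olfactomedin domain. Mme encodes neprilysin, a zinc peptidase of the plasma membrane that cleaves enkephalins, amyloid beta and other small peptides. Angpt1 encodes angiopoietin 1, a secreted ligand of the endothelial receptor Tek. Medag differs from these: its product promotes the differentiation of fat cell precursors and is not known as a surface or matrix protein, so the name surface and matrix genes does not describe it.

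The deposited values are log2 levels, and a difference of 1 is a 2-fold difference. Array medians over all genes ranged from 7.42 to 7.51. Precision is limited by the number of arrays. Genes of the amino acid response checked the labels at 5 h: all 6 genes listed for it rose, among them Trib3 (2.52), Chac1 (2.12), Asns (1.01) and Atf4 (0.95), on the log2 scale. Both arrays numbered 4 at 5 h stood apart. Their median absolute difference from the other 3 arrays of the group was 0.238 (control) and 0.233 (deprived), against 0.087 to 0.165 for the remaining arrays. All 5 genes had their highest 5 h value on array 4 in both groups, and 5 h results are therefore given with and without these arrays.

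Promoter sequences are shown because the 5 genes were low on the same array. RefSeq windows of 250 bases before a transcription start, on GRCm38.p6, were found for 4 of the 5 genes and not for Angpt1. The windows printed are the 1 of Aspn, the 1 of Olfml3, and the most upstream of 2 for Medag and of 3 for Mme. Capitals mark matches, on either strand, to TATAAA (the TATA box core), GGGCGG (a GC box core), TGANTCA (AP-1), CATTCC (TEAD), GTAAACA (FOXO), TGATGNAA (the composite site of Atf4) or CACGTG (an E box). Each is printed 5′ to 3′ in the direction of the gene, from chr13:49544193-49544442 (plus strand) for Aspn, chr3:103738002-103738251 (minus strand) for Olfml3, chr3:63294961-63295210 (plus strand) for Mme and chr5:149411499-149411748 (plus strand) for Medag.
Aspn: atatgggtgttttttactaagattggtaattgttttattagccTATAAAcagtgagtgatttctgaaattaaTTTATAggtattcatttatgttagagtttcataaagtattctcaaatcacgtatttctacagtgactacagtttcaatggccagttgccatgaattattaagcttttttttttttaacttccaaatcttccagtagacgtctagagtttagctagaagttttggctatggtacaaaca
Olfml3: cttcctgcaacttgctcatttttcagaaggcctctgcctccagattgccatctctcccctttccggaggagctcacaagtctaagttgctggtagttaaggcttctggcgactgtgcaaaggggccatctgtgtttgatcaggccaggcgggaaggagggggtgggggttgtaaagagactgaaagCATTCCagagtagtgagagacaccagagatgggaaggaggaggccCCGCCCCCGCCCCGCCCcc
Mme: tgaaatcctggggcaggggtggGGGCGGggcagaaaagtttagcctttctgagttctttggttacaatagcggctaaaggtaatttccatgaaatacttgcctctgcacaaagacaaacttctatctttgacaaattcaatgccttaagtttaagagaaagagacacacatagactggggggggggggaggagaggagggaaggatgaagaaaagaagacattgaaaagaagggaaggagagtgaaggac
Medag: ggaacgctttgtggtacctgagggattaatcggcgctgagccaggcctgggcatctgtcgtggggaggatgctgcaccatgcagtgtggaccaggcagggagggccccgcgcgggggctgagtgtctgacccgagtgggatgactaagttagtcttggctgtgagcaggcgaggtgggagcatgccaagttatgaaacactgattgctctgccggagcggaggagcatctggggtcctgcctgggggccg

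The printed windows differed in base composition. GC content was 30% for Aspn, 57.6% for Olfml3, 45.6% for Mme and 62.8% for Medag, against a median of 52.4% over all 32851 windows. The Aspn window held 2 matches to TATAAA, at bases -207 to -202 and -178 to -173 before the start. In the Olfml3 window, 1 match to CATTCC lay at -64 to -59 and 3 matches to GGGCGG at -19 to -14, -13 to -8 and -8 to -3, of which the last 2 share a base. The Mme window held 1 match to GGGCGG, at -228 to -223, and the Medag window none to any of the 7 motifs. The windows of these genes that are not printed held more matches. The second Medag window held CACGTG at -57 to -52. Of the other Mme windows, 1 held GGGCGG at -206 to -201 and -66 to -61 and CATTCC at -232 to -227, and the other held GGGCGG at -118 to -113 and -19 to -14 and TGANTCA at -215 to -209. Over all windows, 12.4% held TATAAA, 32.7% GGGCGG, 12.6% CATTCC, 6.75% TGANTCA, 3.17% GTAAACA, 3.45% TGATGNAA and 6.02% CACGTG. A match describes letters only, and neither GTAAACA nor TGATGNAA was found in any of these 7 windows.

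At 16 h every one of the 5 genes was at least 10.9-fold lower in the deprived than in the control cells. Medag was at 9.89 on the control and 5.93 on the deprived array, 15.5-fold lower (log2 difference -3.96). For Mme the levels were 11.53 and 7.63, 14.8-fold lower (-3.89). Aspn was at 9.06 and 5.25, 14-fold lower (-3.80). The secreted factors followed closely. Angpt1 was at 10.80 and 7.32, 11.2-fold lower (-3.48). Olfml3 was at 11.51 and 8.06, 10.9-fold lower (-3.44). The deprived cells thus held between 6.45% (Medag) and 9.2% (Olfml3) of the control level. The gene just outside the set, Epas1, which encodes a hypoxia-inducible transcription factor, was 10.6-fold lower (-3.41), so the edge of the set between Olfml3 and Epas1 was narrow. The next were Kif26b (-3.20), Nrep (-3.18), Edil3 (-3.18) and Tgfbi (-3.17). Over all genes 2.97% were lower by 1 or more at 16 h and 1.96% higher by 1 or more, and the median difference was -0.037. The file holds no detection calls, so whether any gene reached the background of its probes is not known. On the deprived 16 h array 12.9% of all genes lay below Aspn and 23.1% below Medag. The shares were 48.4% for Angpt1, 53.1% for Mme and 58.6% for Olfml3. The fold sizes of Aspn and Medag thus rest on low deprived levels.

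**Figure D1:**
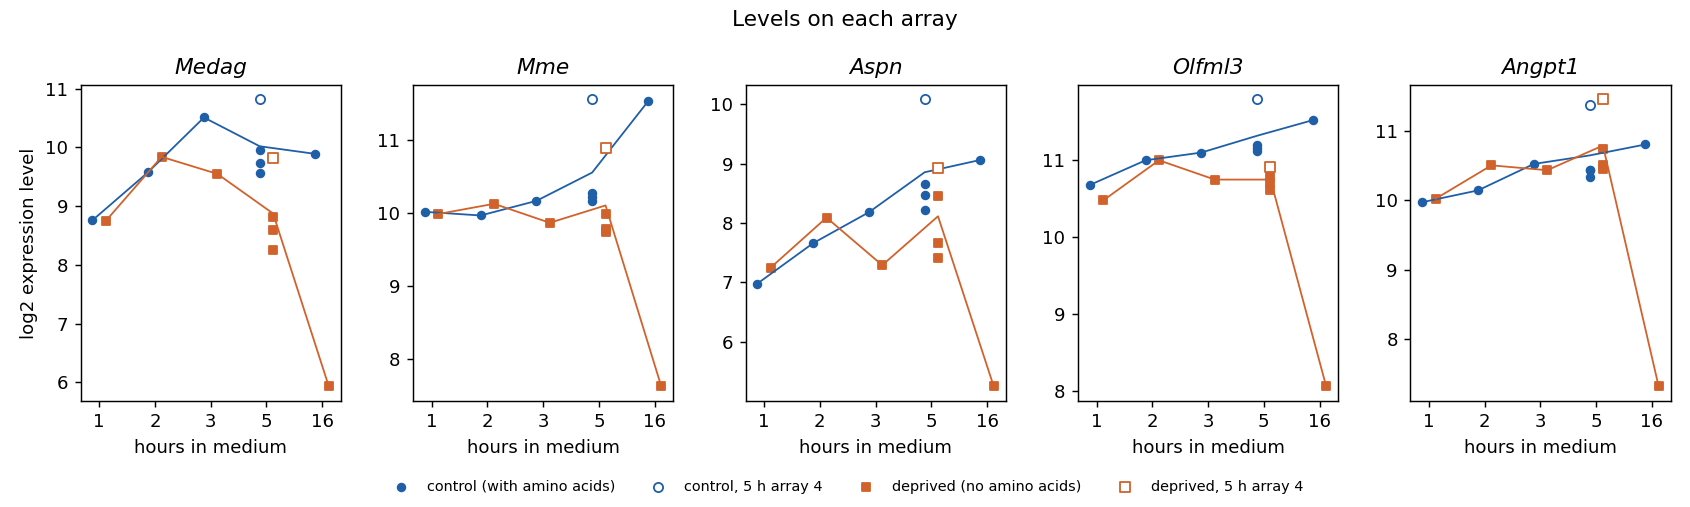
Log2 expression level (y axis, a separate scale per gene) against hours in medium (x axis, not to scale) on each of the 16 arrays, for control (circles) and deprived (squares) cells; lines join single arrays and the 5 h means, and open symbols are the arrays numbered 4. Every deprived 16 h array lies below all other values of its gene, at 5.93 for Medag, 7.63 for Mme, 5.25 for Aspn, 8.06 for Olfml3 and 7.32 for Angpt1.

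The levels of the matrix gene Aspn overlapped between the media over the first 5 h. Control arrays were at 6.98 (1 h), 7.66 (2 h) and 8.18 (3 h), and at 8.21, 8.65, 8.47 and 10.08 on the 4 arrays of 5 h. Deprived arrays were at 7.25, 8.09 and 7.29 over 1 to 3 h, and at 7.66, 7.41, 8.46 and 8.92 at 5 h. Aspn was higher in deprived cells at 1 and 2 h and lower at 3 h, and at 5 h both groups were widely spread and overlapped, with array 4 highest in each. The differences were 0.27, 0.43, -0.89 and, between the 5 h means, -0.74 (SE 0.44, n = 4 per group), for levels of 8.86 (SD 0.84) in control and 8.11 (SD 0.70) in deprived cells.

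Olfml3, the other gene of a matrix-associated product, was the least variable of the set at 5 h. Its control levels were 10.67, 10.99 and 11.09 over 1 to 3 h and 11.11, 11.15, 11.19 and 11.78 at 5 h. In deprived cells they were 10.47, 10.99 and 10.74, then 10.69, 10.60, 10.77 and 10.90. All 4 deprived arrays of 5 h lay below all 4 control arrays, which held for no other gene of the set and for 5.38% of all genes. The difference was -0.20 at 1 h, nil to the second decimal at 2 h, -0.35 at 3 h and -0.57 (SE 0.15, n = 4 per group) at 5 h, where the means were 11.31 (SD 0.31) and 10.74 (SD 0.13).

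Mme, the surface peptidase gene, was nearly level over the early hours in both media. Control arrays read 10.02, 9.97 and 10.17 over 1 to 3 h and 10.17, 10.22, 10.28 and 11.56 at 5 h. Deprived arrays read 9.99, 10.13 and 9.87, then 9.75, 9.79, 9.99 and 10.90. Arrays 1 to 3 did not overlap between the groups at 5 h, but deprived array 4 lay above those control arrays. The differences were -0.03, 0.16, -0.30 and -0.45 (SE 0.35, n = 4 per group), with 5 h means of 10.56 (SD 0.67) and 10.11 (SD 0.54).

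Angpt1, the ligand gene, was not lower in deprived cells at 5 h. Its control levels were 9.97, 10.14 and 10.52 over 1 to 3 h and 10.33, 10.44, 10.43 and 11.37 at 5 h. The deprived levels were 10.02, 10.50 and 10.43, then 10.50, 10.45, 10.74 and 11.45. The groups overlapped, and each deprived array of 5 h was at or above the control array of the same number. The differences were 0.05, 0.36, -0.08 and 0.15 (SE 0.27, n = 4 per group), and the 5 h means were 10.64 (SD 0.49) and 10.79 (SD 0.46).

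Medag, the adipogenesis gene, had the largest 5 h difference of the set. Control arrays were at 8.76, 9.58 and 10.51 over 1 to 3 h and at 9.96, 9.74, 9.56 and 10.82 at 5 h. Deprived arrays were at 8.75, 9.84 and 9.55, then at 8.60, 8.26, 8.82 and 9.82. Deprived arrays 1, 2 and 3 lay below every control array of 5 h, and array 4 did not. The differences were -0.01, 0.26, -0.96 and -1.15 (SE 0.35, n = 4 per group), a 2.21-fold lower mean at 5 h (10.02, SD 0.56, against 8.88, SD 0.67).

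When each loss was first seen was read with a fixed rule, a difference of -1 or lower. Medag met it from 5 h, with -0.96 at 3 h just short of it, and Mme, Aspn, Olfml3 and Angpt1 met it at 16 h alone. At 5 h these readings turned on single arrays: Medag was at -0.88 without control array 4 and at -0.94 without deprived array 2, short of the rule, and Aspn met it at -1.01 without deprived array 4. None of the 5 genes met it at 1, 2 or 3 h, where 0.105%, 0.12% and 0.0451% of all genes did. At 5 h, where Medag met it, 10 of the 19938 genes did. From the lowest 5 h difference, Medag ranked 3rd, Aspn 44th, Olfml3 158th, Mme 377th and Angpt1 17388th. A difference of 2 single arrays is imprecise: from the 5 h arrays, its SD was 0.87 for Medag, 0.86 for Mme, 1.09 for Aspn, 0.34 for Olfml3 and 0.67 for Angpt1. The 3 h differences of Medag (-0.96) and Aspn (-0.89) were the 11th and 14th lowest of all genes. For Aspn that is within 1 such SD, but these SDs include the arrays numbered 4, which stood apart. Without both, the limma SE of the 5 h difference went from 0.35 to 0.13 for Medag and from 0.44 to 0.22 for Aspn. The SD of 2 single arrays was not taken again without them.

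**Figure D2:**
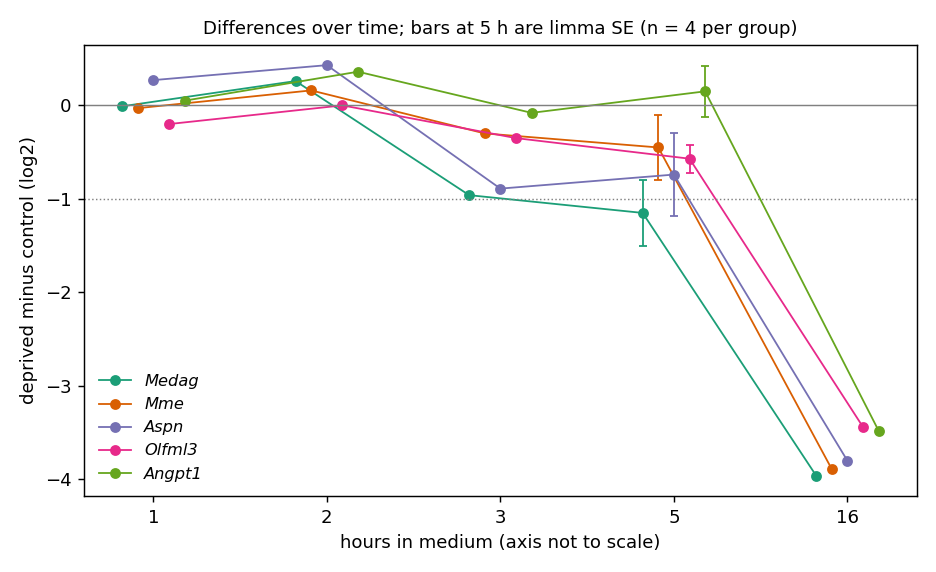
Deprived minus control log2 difference (y axis) against hours in medium (x axis, not to scale) for the 5 genes, with limma SE bars at 5 h (n = 4 per group) and single-array differences at the other times. Up to 5 h the values lie between -1.15 (Medag, 5 h) and 0.43 (Aspn, 2 h), and at 16 h between -3.96 and -3.44.

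The 5 h arrays took no part in the choice of the genes, and the test there was limma's moderated test over all 19938 genes, with Benjamini-Hochberg adjustment. None of the 5 genes passed an adjusted p of 0.05, while 1.7% of all genes were called lower and 2.41% higher. The limma adjusted p was 0.0713 for Olfml3, 0.129 for Medag, 0.583 for Aspn, 0.784 for Mme and 1.0 for Angpt1. Of these, 2 (Medag and Olfml3) had an unadjusted p under 0.05. Same-numbered control and deprived arrays deviated together mostly through number 4. The correlation of their deviations was 0.896 for number 4, and 0.193, -0.003 and -0.2 among numbers 1 to 3 alone. Compared within numbers the picture changed. The pair differences, from number 1 to 4, were -1.36, -1.48, -0.75 and -1.0 for Medag, -0.42, -0.43, -0.29 and -0.66 for Mme, and -0.42, -0.55, -0.42 and -0.88 for Olfml3. For Aspn they were -0.56, -1.24, -0.01 and -1.16, and for Angpt1 they were 0.18, 0.01, 0.31 and 0.09. Medag, Mme, Olfml3 and Aspn were thus lower in all 4 pairs, as were 19.3% of all genes, and Angpt1 was higher in all 4.

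With the replicate number as a block in limma, 4 of the 5 genes fell, where 10% of all genes were called lower and 8.22% higher. The blocked limma adjusted p was 3.18e-05 for Medag (SE 0.10), 0.000592 for Olfml3 (SE 0.08), 0.00117 for Mme (SE 0.07) and 0.00757 for Aspn (SE 0.16). Angpt1 was at 0.15 (SE 0.07, limma adjusted p = 0.178) and was not called. Without both arrays numbered 4, limma called 3 of the 5 genes lower, against 7.17% of all genes. These were Medag (-1.20, SE 0.13, adjusted p = 0.000198), Olfml3 (-0.46, SE 0.07, adjusted p = 0.00126) and Mme (-0.38, SE 0.08, adjusted p = 0.00851). Aspn differed by -0.61 (SE 0.22, limma adjusted p = 0.0976) and Angpt1 by 0.17 (SE 0.09, limma adjusted p = 0.276). Over 17 settings the limma adjusted p ran from 1.41e-05 to 0.328 for Medag, 6.35e-05 to 0.209 for Olfml3, 0.00117 to 1.0 for Mme, 0.00757 to 0.922 for Aspn and 0.178 to 1.0 for Angpt1. Olfml3 passed without control array 4 alone (-0.41, limma adjusted p = 0.0277). Medag passed without deprived array 4 alone (-1.46, limma adjusted p = 0.0162), where Angpt1 turned to -0.08.

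Over 1 to 3 h together, in a limma fit that held time as a factor, none of the 5 genes passed, where 0.125% of all genes were called lower. The mean differences were -0.24 (SE 0.19) for Medag, -0.19 (SE 0.08) for Olfml3, -0.07 (SE 0.21) for Aspn, -0.06 (SE 0.09) for Mme and 0.11 (SE 0.09) for Angpt1. The lowest limma adjusted p was 0.469, for Olfml3, and none was under 0.05 unadjusted. Whether the 5 h difference exceeded the early one was tested as an interaction in limma. It was -0.91 (SE 0.61) for Medag, -0.68 (SE 0.63) for Aspn, -0.39 (SE 0.44) for Mme, -0.38 (SE 0.23) for Olfml3 and 0.04 (SE 0.37) for Angpt1. None of the 5 passed, adjusted or unadjusted, and 0.01% of all genes passed in the lower direction. Without both arrays numbered 4 the interaction was -0.96 (SE 0.48) for Medag, -0.54 (SE 0.43) for Aspn, -0.32 (SE 0.13) for Mme, -0.28 (SE 0.18) for Olfml3 and 0.06 (SE 0.20) for Angpt1. None passed in limma there, and Mme had an unadjusted limma p of 0.025 (adjusted p = 0.493). A later onset in one gene than in another was not tested.

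**Figure D3:**
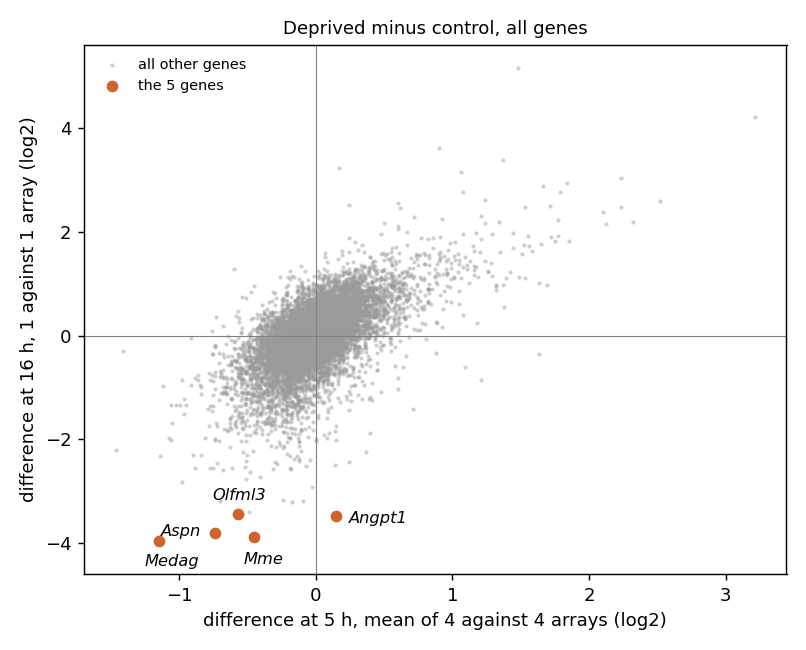
Deprived minus control log2 difference at 5 h (x axis, means of 4 against 4 arrays) and at 16 h (y axis, 1 against 1 array) for all 19938 genes (grey) and the 5 genes (orange). The 5 genes are the lowest on the y axis because they were chosen there; on the x axis they run from -1.15 (Medag) to 0.15 (Angpt1).

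Control cells changed too during the first hours. From 1 to 3 h the control level of Medag went up by 1.75, a 3.35-fold difference between single arrays and the largest increase of all 19938 genes over that interval. Aspn went up by 1.20 (2.3-fold, the 5th largest), Angpt1 by 0.54, Olfml3 by 0.42 and Mme by 0.15, while the median gene changed by -0.04. In deprived cells the same step was 0.79 for Medag, 0.41 for Angpt1, 0.27 for Olfml3, 0.04 for Aspn and -0.12 for Mme. Between 2 and 3 h, Aspn went from 7.66 to 8.18 in control and from 8.09 to 7.29 in deprived cells, and Medag from 9.58 to 10.51 and from 9.84 to 9.55. Both genes were thus higher in control and lower in deprived cells at 3 h than at 2 h. These steps compare 1 array with 1 array and have no test.

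Between 1 to 3 h and 5 h, control cells held 1.25 (SE 0.44) more Aspn, 0.50 (SE 0.31) more Mme, 0.43 (SE 0.26) more Angpt1, 0.41 (SE 0.43) more Medag and 0.39 (SE 0.16) more Olfml3, on the log2 scale. These changes come from the same limma fit with 1 to 3 h pooled, so the SE again holds changes within these hours. None of the 5 passed, where 0.221% of all genes were called higher. Aspn (adjusted p = 0.269) and Olfml3 (adjusted p = 0.4) had an unadjusted limma p under 0.05. Without both arrays numbered 4 the control change of Aspn was 0.84 (SE 0.30), of Olfml3 0.23 (SE 0.12), of Angpt1 0.19 (SE 0.14), of Mme 0.17 (SE 0.09) and of Medag 0.14 (SE 0.34). In deprived cells the changes were -0.50 (SE 0.43) for Medag, 0.01 (SE 0.16) for Olfml3, 0.11 (SE 0.31) for Mme, 0.47 (SE 0.26) for Angpt1 and 0.57 (SE 0.44) for Aspn. None passed in limma, adjusted or unadjusted, where 0.512% of all genes were called lower. Without both arrays numbered 4 the deprived changes were -0.82 (SE 0.34) for Medag, 0.30 (SE 0.30) for Aspn and 0.25 (SE 0.14) for Angpt1, and the signs for Mme (-0.16) and Olfml3 (-0.04) turned. None passed in limma there either, and Medag had an unadjusted limma p of 0.03 (adjusted p = 0.22).

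Between 5 and 16 h the gap between the media widened for Medag, Mme, Aspn and Olfml3, and opened for Angpt1. In deprived cells the 16 h array stood against the 5 h mean at -3.47 for Angpt1 (11.1-fold lower), -2.94 for Medag (7.68-fold), -2.86 for Aspn (7.26-fold), -2.68 for Olfml3 (6.39-fold) and -2.47 for Mme (5.55-fold). It was also below the lowest deprived 5 h array, by 3.13 for Angpt1, 2.54 for Olfml3, 2.33 for Medag, 2.16 for Aspn and 2.12 for Mme. Of all genes, 56 (0.281%) had a deprived step of -2 or lower, and the median step was 0.04. The deprived 16 h array is the one the genes were chosen on, so their place among these 56 is a description.

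Control cells did not share this step. Since the control 16 h array entered the choice as well, the steps of control cells are also a description. Their 16 h array stood against the 5 h mean at 0.97 for Mme (1.96-fold higher), 0.20 for Aspn, 0.20 for Olfml3, 0.16 for Angpt1 and -0.13 for Medag. Without array 4 these were 1.31, 0.61, 0.36, 0.40 and 0.13, so that the sign for Medag turned. The 16 h control level lay within the range of the 5 h control arrays for all 5 genes, for Mme just under array 4 (11.53 against 11.56). Array 4 set the upper end of that range for all 5 genes. Only Medag, at 9.89, also lay within the range of control arrays 1 to 3 (9.56 to 9.96). The highest of control arrays 1 to 3 was 10.28 for Mme, 8.65 for Aspn, 11.19 for Olfml3 and 10.44 for Angpt1. Their 16 h control levels were higher, at 11.53, 9.06, 11.51 and 10.8. For Mme the 16 h difference of -3.89 thus held a higher control as well as a lower deprived array. For Angpt1 most of the 16 h difference was the deprived step, -3.47 beside a control step of 0.16. Without array 4 these steps were -3.25 and 0.40. In bulk RNA, fewer cells of a type and less RNA per cell cannot be told apart.

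**Figure D4:**
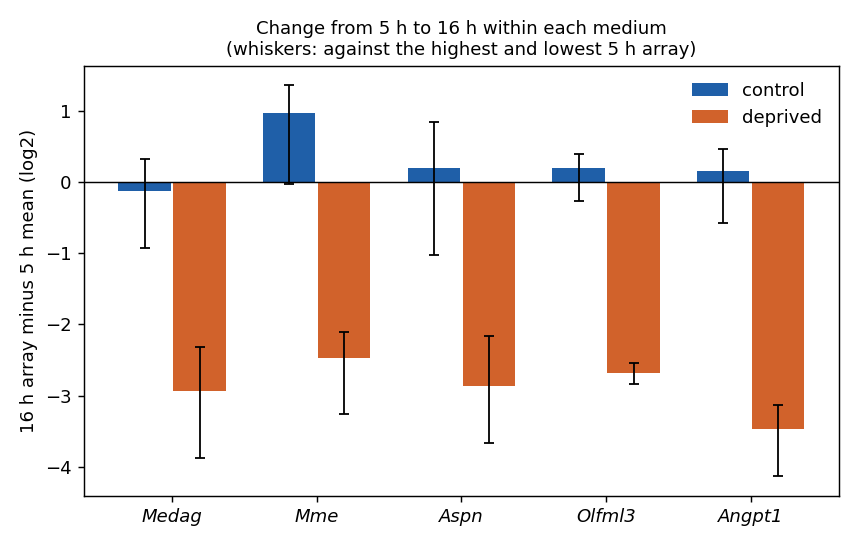
Level of the 16 h array minus the mean of the 4 arrays of 5 h (y axis, log2) for each gene (x axis), in control and deprived cells; whiskers run to the same step taken from the highest and from the lowest 5 h array. Deprived steps lie between -3.47 (Angpt1) and -2.47 (Mme), and control steps between -0.13 (Medag) and 0.97 (Mme).

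Among themselves the 5 genes varied together over the 16 arrays, which share cells, medium and time. Pearson's r over the 10 pairs ran from 0.84 (Medag and Angpt1) to 0.929 (Medag and Olfml3), with a median of 0.887, and the single deprived 16 h array enters every one of these. Over the 14 arrays up to 5 h, r ran from 0.481 to 0.872 with a median of 0.784. Without the arrays numbered 4 the range over 12 arrays was 0.01 (Mme and Angpt1) to 0.822 (Medag and Olfml3). Similar profiles over the 16 arrays were sought only among genes above the median level, and the deprived 16 h array enters these r as well. The most similar genes were, for Olfml3, Fstl1 (r = 0.979, with -2.10 at 16 h). For Angpt1 they were Pdgfc (r = 0.987, with 0.10 at 5 h and -1.88 at 16 h) and Tmeff2 (r = 0.982, with -1.98 at 16 h). For Mme they were Ptgfrn (r = 0.966) and Sh3pxd2b (r = 0.964), for Medag Hadh (r = 0.97) and Ociad2 (r = 0.963), and for Aspn Pxdn (r = 0.937) and Plod2 (r = 0.935).

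Relatives of each gene did not all share its loss. Of 15 other small leucine-rich proteoglycan genes, the matrix family of Aspn, none passed at 5 h in limma, with or without the block (1 had an unadjusted p under 0.05). Of all genes 1.7% were called lower and 2.41% higher there, and 10% and 8.22% with the block. At 16 h 5 of them were lower by 1 or more, against 2.97% of all genes, and the list median was -0.27. These were Dcn, which encodes the collagen-binding decorin (-2.33), Omd (-2.16), Bgn (-1.86), Ogn (-1.43) and Podnl1 (-1.16), the last 3 named after their values were seen. Of 11 other olfactomedin-domain genes none passed at 5 h in limma (1 unadjusted), 3 fell with the block (10% of all genes), and 3 were lower by 1 or more at 16 h (2.97% of all genes), namely the adhesion receptor genes Adgrl3 (-2.01) and Adgrl2 (-1.36) and the secreted Olfml2b (-1.95). Adgrl2 was named after its value was seen. The list median was -0.21.

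Other surface peptidases were mostly near 0. Of 14 measured beside Mme, none passed at 5 h in limma (1 unadjusted), where 1.7% of all genes were called lower and 2.41% higher. At 16 h 1, Anpep, which encodes aminopeptidase N, was lower by 1 or more (-1.56), against 2.97% of all genes. The list median was -0.06. Ece2, an endothelin-converting enzyme gene of the neprilysin family, was at 0.47 (SE 0.14, limma adjusted p = 0.108) at 5 h and 0.77 at 16 h. It was called higher with the block (limma adjusted p = 0.000252), as were 8.22% of all genes.

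In the angiopoietin system, none of 11 genes beside Angpt1 fell at 5 h, against 1.7% of all genes, and 1 rose, against 2.41%. This was Angptl4, which encodes an inhibitor of lipoprotein lipase (0.95, SE 0.14, n = 4 per group, limma adjusted p = 0.00506), and it was at 1.43 at 16 h. Angptl6 was at 0.40 at 5 h (limma adjusted p = 0.14) and 1.52 at 16 h. With the block 2 of the 11 were higher, Angptl4 and Angptl6 (limma adjusted p = 0.000164 and 0.00185), and none was lower. Of all genes 8.22% were higher and 10% lower there. The receptor gene Tek differed by 0.13 (SE 0.10) at 5 h and 0.06 at 16 h, and the competing ligand gene Angpt2 by 0.06 (SE 0.08) and -0.67, both named after their values were seen.

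Of 16 regulators of fat cell differentiation, the setting in which Medag is known, 3 rose at 5 h, against 2.41% of all genes, and none fell, against 1.7%. Ddit3, which encodes CHOP and belongs to the amino acid response as well, rose by 1.77 (SE 0.14), Klf4, a zinc-finger factor of early adipogenesis, by 1.42 (SE 0.21) and Cebpb, which acts at the start of adipogenesis, by 0.65 (SE 0.10). Their limma adjusted p were 0.000187, 0.00509 and 0.00738 with n = 4 per group. With the block 3 of the list were higher and none lower, against 8.22% and 10% of all genes. At 16 h 2 of the 16 (Ddit3, 2.22, and Klf4, 1.23) were higher by 1 or more (1.96% of all genes), and none was lower by 1 or more (2.97% of all genes). The list median at 16 h was -0.06. The medians of the peptidase, angiopoietin and adipogenic lists took the other sign when the arrays were quantile normalized again or centred.

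TGF-beta and BMP signalling, the pathway whose ligands asporin binds, was low at 16 h in 9 of its 26 genes. These 9 were lower by 1 or more (2.97% of all genes were) and none was higher by as much, with a median of -0.53, against -0.037 for all genes. Of the 26, 24 had a mean level above the median gene level, whereas the values for all genes cover every level. Tgfbi, a matrix protein gene induced by TGF-beta, was at -3.17 and Id2, a target that inhibits differentiation factors, at -1.99. At 5 h 2 of the 26 fell, against 1.7% of all genes, and 2 rose, against 2.41%. Id2 fell by 0.74 (SE 0.10) and Tgfbr2, the type II receptor gene, fell by 0.48 (SE 0.07), while Skil (0.57, SE 0.14) and the inhibitory Smad7 (0.43, SE 0.09) rose. In that order, and for n = 4 per group, their limma adjusted p without the block were 0.00285, 0.00489, 0.0493 and 0.0201. With the block, 2 of the 26 were higher and 8 lower, against 8.22% and 10% of all genes.

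**Figure D5:**
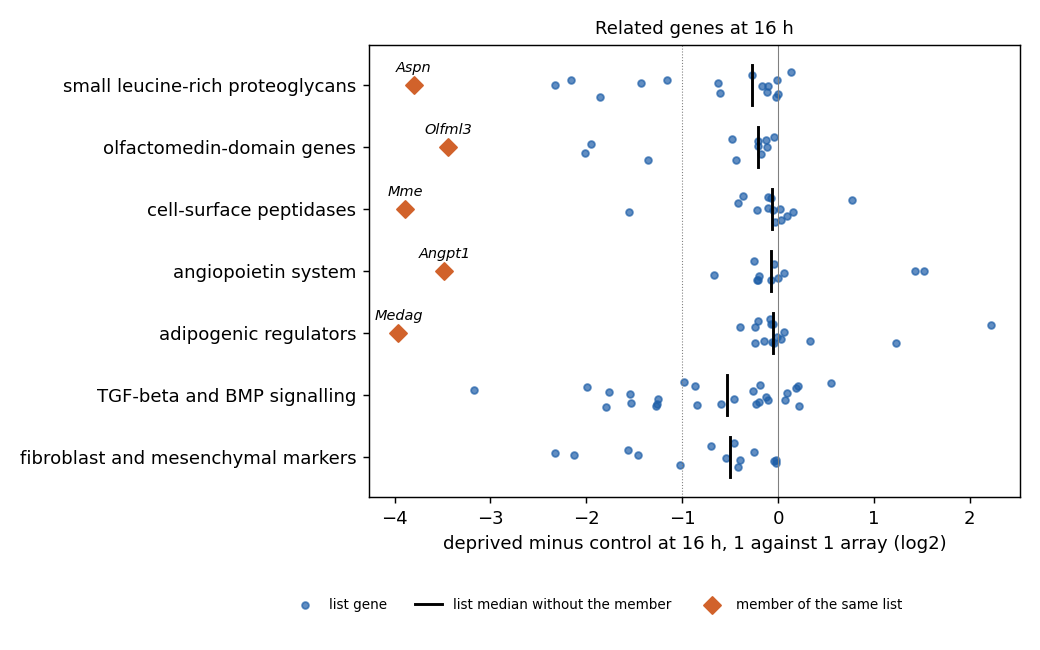
Deprived minus control log2 difference at 16 h (x axis, 1 against 1 array) for the genes of 7 lists (rows; blue points), with each list's median without the chosen gene (black bar) and the chosen gene of that family (orange diamond). The medians lie between -0.53 (TGF-beta and BMP signalling) and -0.06, and the 5 chosen genes between -3.96 and -3.44.

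Markers of cell types were read beside these losses. Of 14 fibroblast and mesenchymal markers, 12 had a mean level above the median gene level of 7.47, and the list's mean level was 9.67 to 9.91 on the control arrays of 1 to 5 h, 9.77 on the 16 h control array, 9.56 to 9.70 on the deprived arrays of 1 to 5 h and 8.96 on the deprived 16 h array. At 16 h 5 of the 14 were lower by 1 or more (2.97% of all genes), among them Dcn (-2.33) and the collagen gene Col1a1 (-2.13). The list median was -0.50. At 5 h 1 fell (1.7% of all genes), the transcription factor gene Prrx1, by 0.41 (SE 0.08, n = 4 per group, limma adjusted p = 0.0195). With the block 4 were lower (10% of all genes). The part of these changes in the loss of the 5 genes was not tested.

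Hypothalamic markers, the labelled origin, were low: 3 of 13 were above the median gene level, and the list's mean was 6.71 to 7.04 on control arrays up to 5 h, 6.98 on the control and 6.91 on the deprived array of 16 h. Of 11 neuron markers 3 were above that level, among them Stmn2, a tubulin regulator. At 16 h Stmn2 was at -1.44, the 1 of the 11 lower by 1 or more (2.97% of all genes), and the list median was -0.17. The neuron list's mean was 6.97 to 7.18 on control arrays up to 5 h and 7.07 and 6.83 at 16 h. Of 8 endothelial markers, the cells that carry the receptor of angiopoietin 1, none was above it, with means of 6.31 (control) and 6.27 (deprived) at 16 h.

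Astrocyte, pericyte and leukocyte lists had 2 of 7, 4 of 8 and 2 of 8 markers above the median gene level. Their 16 h means, control then deprived, were 7.86 and 7.13 for astrocyte, 8.33 and 7.81 for pericyte and 6.53 and 6.35 for leukocyte markers. At 16 h 2 of 7 astrocyte, 2 of 8 pericyte and 0 of 8 leukocyte markers were lower by 1 or more, against 2.97% of all genes. The list medians were -0.40, -0.15 and -0.02. The astrocyte genes were the glutamate transporter gene Slc1a3 (-2.49) and the gap junction gene Gja1 (-1.45). The pericyte genes were the smooth muscle actin gene Acta2 (-1.78) and Pdgfrb (-1.57). At 5 h 1 astrocyte and 1 pericyte marker fell, against 1.7% of all genes. Gja1 fell by 0.76 (SE 0.08, n = 4 per group, limma adjusted p = 0.00102) and the desmin gene Des by 0.34 (SE 0.08, limma adjusted p = 0.0377). The median over all genes at 16 h was -0.037, and the part of any marker list in the loss of the 5 genes was not tested.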

How the data were processed

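The authors deposited log2 values that RMA (robust multi-array average) produced, per the submitters' processing notes. These give no version for RMA or limma. The table has 35556 rows and 16 columns, each matched to a sample, and its values run from 3.07 to 14.2. Rows were named through the platform annotation: 21789 carry 1 gene symbol, 1621 several and 12146 none listed here. Of the single-symbol rows, 21698 matched a current gene table by identifier. Where a gene had several rows (999 genes) the row with the highest mean was kept, which left 19938 genes. No further normalization was applied. The build behind the array design is not given in the sources used here, and promoters are RefSeq's on GRCm38.p6.

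For 5 h, the 8 arrays were fitted with limma 3.58.1 under R 4.3.3, two-sided, with Benjamini-Hochberg adjustment over all 19938 genes and a threshold of 0.05. The arrays of 1 to 3 h were tested together with time as a factor. The 14 arrays up to 5 h were tested in a fit of 4 groups, with 1 to 3 h pooled in each medium. Single arrays gave differences without a test. Gene lists were counted beside the same values over all genes. The scripts were tested on simulated data, and tables and plots used Python 3.11.15, numpy 2.4.6, pandas 2.3.3 and matplotlib 3.10.9. Precision is limited by the number of arrays.

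The genes, lists and tests were chosen with earlier results of these data known. Named were the 5 genes, up to 4 genes of a list past the threshold at 5 h, and up to 2 of a list with the largest 16 h difference. The latter, and the 3 most similar profiles per gene, were taken among genes above the median level. The next lowest genes at 16 h, and Trib3, Chac1, Asns and Atf4, were named as well. Both groups carry numbers 1 to 4 at 5 h. Deviations of same-numbered arrays correlated at 0.354, 0.584, 0.467 and 0.896, so the number was used as a block in an alternative. Among numbers 1 to 3 alone the correlations were 0.193, -0.003 and -0.2. The other alternatives were array weights, all 16 arrays in the fit, quantile normalization again, centring, genes above the median level, the mean of a gene's rows, a trended and robust variance prior, and arrays left out. Leaving out both arrays numbered 4 was added after the data were seen for the fit of 4 groups and for the step to 16 h.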

Additional observations from a re-analysis of the deposited data

Results flagged for a closer look

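In control cells at 5 h the highest array stood far from the other 3 for Mme (11.56), Olfml3 (11.78) and Angpt1 (11.37). In each case it was array 4, which stood apart over all genes as well. Of 10 groups of 4 examined, 3 were flagged in this way, and chance flags about 1 in 20. Angpt1 was lower at 16 h (-3.48) after being higher in all 4 same-numbered pairs at 5 h, and the difference between these times was not tested.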

How the results depend on the processing

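No gene has more than 1 array per group at 16 h, and the 16 h ranks rest on that pair. The number of genes called at 5 h (820) was 3632 with the replicate block, 5485 with array weights and 2695 without both arrays numbered 4. Of the 5 genes, 0 passed in the main test, 4 with the block, 4 with array weights, 3 without both arrays numbered 4 and 1 (Olfml3) after quantile normalization again. Over 1 to 3 h, 35 genes were called, 114 with arrays centred and 119 with the trended prior. The interaction called 26 genes and 102 without both arrays numbered 4. In control cells 141 genes differed between 5 h and the early hours, 258 after quantile normalization again, 86 with the trended prior and 509 without both arrays numbered 4. In deprived cells the counts were 209, 426, 333 (genes above the median level) and 935 for those without both arrays numbered 4. Signs turned for Olfml3 in deprived cells (-0.02 after quantile normalization again and -0.04 without both arrays numbered 4), Mme in deprived cells (-0.16) and the control step of Medag (0.13), the last 2 without both arrays numbered 4. The causes were not tested. Leaving out 1 array or 1 early time, the counts of genes called ran from 382 to 1066 at 5 h, 5 to 536 over 1 to 3 h, 0 to 44 for the interaction, 4 to 237 in control cells and 19 to 456 in deprived cells, and 0 to 1 of the 5 genes passed at 5 h. In the same refits the 5 h difference ran from -0.08 to 0.39 for Angpt1, -0.71 to -0.11 for Mme, -1.01 to -0.34 for Aspn, -1.46 to -0.88 for Medag and -0.63 to -0.41 for Olfml3, with both ends set by the arrays numbered 4 except the lower end for Olfml3 (control array 1). The interaction of Angpt1 ran from -0.18 to 0.28. The mean differences over 1 to 3 h ran from -0.48 to 0.13 for Medag, -0.16 to 0.07 for Mme, -0.31 to 0.35 for Aspn and -0.02 to 0.20 for Angpt1. The control change of Medag ran from -0.02 to 0.85, and the deprived changes from -0.16 to 0.23 for Mme and -0.12 to 0.14 for Olfml3. With quantile normalization again, centring, or the mean of a gene's rows, the 16 h differences of the 5 genes lay between -4.03 and -3.35.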
